A study of Mus musculus with 6 samples.

Results

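The 35 genes described here are interferon-stimulated genes, a list given by name that takes in the transcription factors, sensors and antiviral effectors of the type I and type II interferon response. They were read in whole mouse colon by RNA sequencing, and 33 of the 35 had a row in the count tables and passed the filter on low counts, among 16347 genes tested of 24517 listed. Mx1 and Mx2 were not analysed here. The 2 groups held 3 libraries each. In NSD2∆IE mice, Villin-Cre had removed the gene for NSD2, an enzyme that methylates histone H3, from intestinal epithelial cells, and NSD2fl/fl mice carried the floxed gene and served as controls. Both groups had the C57BL/6J background and ate HFCD, a diet rich in fat and cholesterol. The labels give its length as 16 weeks and the study's methods as longer. The methods describe the animals as male littermates and give a young adult age for the start of the diet. The Cre acts in epithelial cells only, so the muscle, nerve, vessel and immune cells of the colon pieces kept the gene.

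Interferons are secreted signals of viral and bacterial infection. Type I and type III interferons act through receptors that lead to a complex with STAT2 and IRF9, which binds interferon-stimulated response elements (ISRE), while interferon gamma acts through gamma-activated sites (GAS). In the gut the epithelium holds a low tone of this response under signals from the microbiota, and interferon gamma from lymphocytes adds to it.

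The promoters of 4 of the genes are shown because they carry the ISRE core and because the values below turn on these genes. The 250 bases before the start site are from RefSeq on GRCm38.p6, printed from 5′ to 3′ on the strand of the gene, and the capitals mark each match of the ISRE core, searched as GAAA, any 2 bases and GAAA, or as the same letters read on the other strand (TTTC, any 2 bases and TTTC). The windows are chr4:156200819-156201068 on the minus strand for Isg15, chr19:34640639-34640888 on the plus strand for Ifit1, chr5:120907526-120907775 on the minus strand for Oas1a, and chr3:142620413-142620662 on the plus strand for Gbp2.
Isg15: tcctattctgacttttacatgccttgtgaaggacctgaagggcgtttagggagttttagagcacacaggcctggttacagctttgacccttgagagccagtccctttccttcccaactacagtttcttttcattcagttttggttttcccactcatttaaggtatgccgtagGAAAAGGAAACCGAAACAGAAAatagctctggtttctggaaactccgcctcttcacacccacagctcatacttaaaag
Ifit1: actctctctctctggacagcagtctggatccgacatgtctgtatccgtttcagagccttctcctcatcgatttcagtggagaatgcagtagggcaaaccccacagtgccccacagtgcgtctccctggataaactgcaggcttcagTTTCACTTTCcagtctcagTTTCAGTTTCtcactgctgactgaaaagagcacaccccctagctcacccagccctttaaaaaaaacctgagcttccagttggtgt
Oas1a: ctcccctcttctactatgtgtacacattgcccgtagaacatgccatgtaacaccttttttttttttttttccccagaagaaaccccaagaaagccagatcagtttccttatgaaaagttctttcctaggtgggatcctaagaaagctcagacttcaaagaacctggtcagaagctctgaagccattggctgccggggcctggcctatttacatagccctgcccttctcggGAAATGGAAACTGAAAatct
Gbp2: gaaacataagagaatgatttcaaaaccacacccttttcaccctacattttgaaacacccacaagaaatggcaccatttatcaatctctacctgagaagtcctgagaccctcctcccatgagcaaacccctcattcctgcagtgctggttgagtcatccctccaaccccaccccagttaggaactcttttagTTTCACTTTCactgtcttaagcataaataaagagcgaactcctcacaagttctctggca
In Isg15 3 overlapping matches began 78, 72 and 66 bases before the start site. Ifit1 had 2 separate matches, Oas1a had 2 that overlap, and Gbp2 had 1. Over windows of 250 bases before to 50 after the start site, 26 of the 33 genes were found by symbol, and 15 of them (57.7%) held the ISRE core, against 3.99% of 27025 genes in the same table. A GAS match, TTCNNNGAA, which reads the same on both strands, was held by 7 of the 26 (26.9%), against 9.55% of all genes. Irf7, Irf9, Irf1, Lgals3bp and Ifi44 were among those without these ISRE letters in the window. A match describes the letters only.

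Library totals ranged from 38041832 to 38604680 counts, so depth was nearly equal. Nsd2 held 47.8, 59.1 and 68.9 CPM (reads scaled to a common library total, with TMM factors) in NSD2fl/fl replicates 1, 2 and 3, and 24.5, 23.1 and 27.5 CPM in NSD2∆IE replicates 1, 2 and 3. The groups did not overlap. This order of replicates is kept for every set of values below. Xist was read in the NSD2∆IE libraries and Y-linked genes in the NSD2fl/fl libraries, against the male littermates of the methods, so in every comparison below the genotype and this sex pattern cannot be told apart. Hoxb13, a gene of the distal colon, was high in NSD2fl/fl replicates 1 and 3 and NSD2∆IE replicate 1, at 310.0 to 365 CPM, and was at 0.706 to 26.2 CPM in the other 3 libraries. Epithelial markers were abundant in every library, with summed levels of 9297 to 16554 CPM in NSD2fl/fl and 9343 to 10620 CPM in NSD2∆IE. Summed smooth muscle markers reached 1338 to 3884 CPM in NSD2fl/fl and 4832 to 10394 CPM in NSD2∆IE, with all 6 markers in the tables. In bulk tissue, fewer cells of a type and less RNA per cell cannot be told apart.

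The comparison of NSD2∆IE with NSD2fl/fl asked whether the interferon-stimulated genes differed after loss of epithelial NSD2. None of the 33 passed an adjusted p under 0.05 in edgeR's quasi-likelihood test or in DESeq2, where 0.0306% and 2.79% of all genes did so, respectively. The smallest adjusted p among the 33 was 0.406. At an unadjusted p under 0.05 in edgeR, 1 gene was higher in NSD2∆IE (Gbp2) and 0 were lower, against 8.15% and 2.96% of all genes tested. DESeq2 gave 3 higher (Gbp2, Ifit2 and Ifit3) and 0 lower, against 9.2% and 3.41% of all genes. Without NSD2∆IE replicate 1, edgeR gave 6 higher (Ddx58, Gbp2, Gbp3, Gbp7, Ifit2 and Ifit3), against 7.8% of all genes in that fit. That library was the lowest knockout for 33 of 33 genes, so leaving it out raises their fitted values. It was also the only knockout of high Hoxb13, so that fit holds knockouts of low Hoxb13 alone. Without NSD2fl/fl replicate 2, NSD2∆IE replicate 2 or NSD2∆IE replicate 3 edgeR gave 0, against 675 to 1561 of all genes. Gbp2 was also the 1 gene of the 33 whose groups did not overlap, against 11.4% of all genes with no overlap and higher values and 7.28% with no overlap and lower values. The fitted log2 fold changes of NSD2∆IE over NSD2fl/fl were above 0 for 20 genes and below 0 for 13, against 7145 and 9202 of all 16347 genes. Those of the 33 genes ran from -0.45 for Zbp1 to 0.73 for Ifit2. Their median was 0.13 against -0.041 for all genes, and it was -0.12 without NSD2fl/fl replicate 1, -0.16 without NSD2∆IE replicate 2 and 0.37 without NSD2∆IE replicate 1. The 95% interval of the fold change lay within 2-fold in both directions for 16 of the 33 genes, and was wider for the rest.

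**Figure D1:**
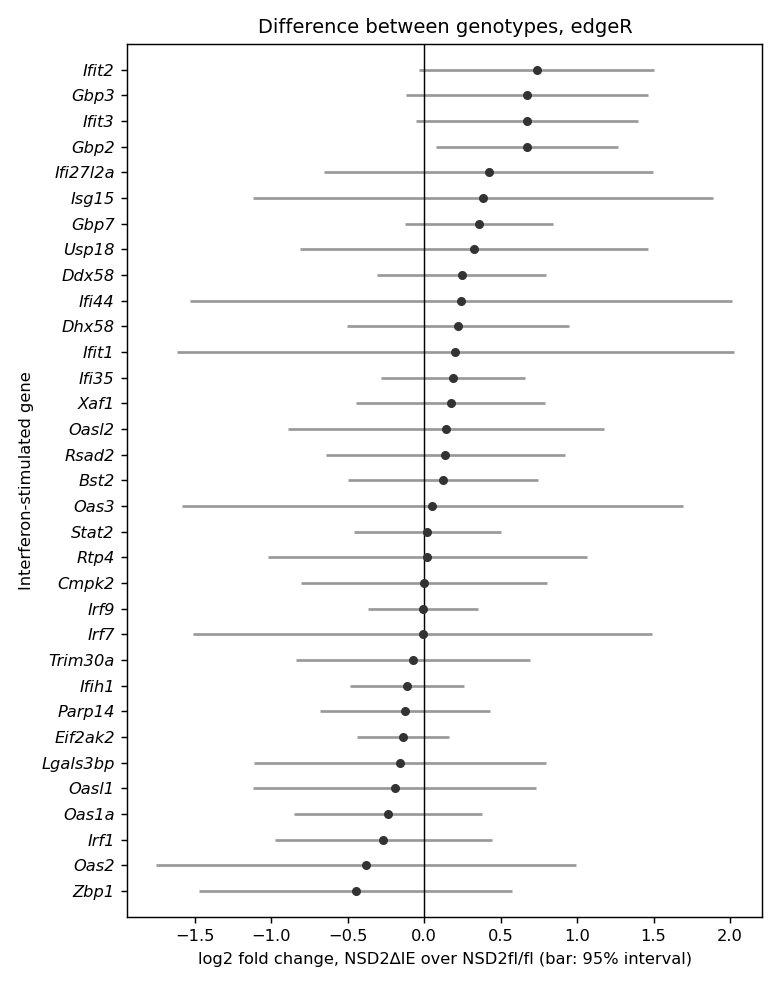
Log2 fold change of NSD2∆IE over NSD2fl/fl (x axis) for each of the 33 interferon-stimulated genes (y axis), with 95% intervals from edgeR, 3 libraries a group. The interval of Gbp2 alone lies to one side of 0, and the widest belongs to Ifit1, whose standard error was 0.77.

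None of the 4 transcription factors passed the test. Irf7, which switches on the interferon genes in a positive loop, had the highest level per length of the set, with a mean of 91.3 FPKM over the 6 libraries. Irf7 held 66.1, 316 and 155 CPM in NSD2fl/fl and 75.0, 267 and 190.0 CPM in NSD2∆IE. Replicate 1 was the lowest library in both groups, and the groups overlapped over nearly their whole range, with a log2 fold change of -0.012 ± 0.63 (SE, n = 3 per group) that ran from -0.43 to 0.69 when 1 library was left out. Irf1, a factor that interferon gamma induces directly, held 146, 275 and 163 CPM in NSD2fl/fl and 114, 185 and 186 CPM in NSD2∆IE. Its highest library was a control and its lowest a knockout, but the groups overlapped (log2 fold change -0.27 ± 0.30, SE). In a fit with a term for the Hoxb13 class, an alternative added with the values known, the edgeR log2 fold change of Irf1 was -0.50 (unadjusted p = 0.00369, adjusted p = 0.314). Irf9 and Stat2, which act together in the ISRE-binding complex, had log2 fold changes of -0.0058 ± 0.15 and 0.021 ± 0.20 (SE) and varied by less than 1.5-fold over all 6 libraries. Without use of strand stated for the counting, reads of Irf7 and of the antisense gene Phrf1 cannot be told apart where their exons overlap.

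The nucleic acid sensors did not pass the test in either direction. Ifih1 and Ddx58 encode MDA5 and RIG-I, which detect viral RNA in the cytosol, Dhx58 encodes their regulator LGP2, and Eif2ak2 encodes PKR, which halts translation. Their fitted log2 fold changes ran from -0.14 for Eif2ak2 to 0.24 for Ddx58, and Eif2ak2 had the smallest standard error of the 33 genes, 0.13. Zbp1, a sensor of Z-form nucleic acid that can trigger necroptosis, had the lowest fitted value of the set. Zbp1 held 27.5, 46.5 and 68.2 CPM in NSD2fl/fl and 18.1, 39.0 and 47.0 CPM in NSD2∆IE. NSD2∆IE replicate 1 was the lowest library and NSD2fl/fl replicate 3 the highest, and the other 4 overlapped (log2 fold change -0.45 ± 0.43, SE, unadjusted p = 0.332 in edgeR).

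The IFIT genes, neighbours on chromosome 19 whose products bind foreign RNA, had fitted values above 0, with none past the test. Ifit1 held 12.7, 73.2 and 42.6 CPM in NSD2fl/fl and 14.4, 88.3 and 45.0 CPM in NSD2∆IE. Each library of one genotype had a counterpart of near level in the other, and within each group the highest library was over 5 times the lowest. The log2 fold change of Ifit1 was 0.20 ± 0.77 (SE). Ifit2 had the largest fitted value of the 33 genes, at 11.9, 10.5 and 13.1 CPM in NSD2fl/fl and 10.6, 26.3 and 22.2 CPM in NSD2∆IE. The controls were even, NSD2∆IE replicate 1 lay among them, and replicates 2 and 3 lay above all 3, giving a log2 fold change of 0.73 ± 0.32 (SE, edgeR unadjusted p = 0.0590, adjusted p = 0.464). Ifit3 had the same arrangement, with a log2 fold change of 0.67 ± 0.30 (SE). Reads of Ifit1 and Ifit3 may be shared with the near copies Ifit1bl1 and Ifit3b.

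The OAS genes lie on chromosome 5 and make the oligoadenylates that activate RNase L. Oas1a held 55.2, 88.2 and 105 CPM in NSD2fl/fl and 55.1, 82.4 and 72.8 CPM in NSD2∆IE. Oas2 held 9.69, 25.2 and 37.3 CPM in NSD2fl/fl and 7.72, 22.2 and 25.5 CPM in NSD2∆IE. In both genes replicate 1 of each genotype stood at a level close to the other's and below the other 4 libraries, and the groups overlapped. The fitted log2 fold changes were -0.24 ± 0.26 for Oas1a and -0.38 ± 0.58 for Oas2 (SE). Oas3, Oasl1 and Oasl2 had fitted values from -0.19 to 0.14, and Oas3 varied 5.05-fold over the 6 libraries. Oas1a is one of a family of near-identical copies, so its counts are uncertain.

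Isg15, a ubiquitin-like protein joined to targets during the response, held 6.88, 19.8 and 36.0 CPM in NSD2fl/fl and 11.8, 35.6 and 34.4 CPM in NSD2∆IE. Replicate 1 was again the lowest in both groups, and NSD2fl/fl replicate 3 lay above all 3 knockouts. Its log2 fold change was 0.38 ± 0.63 (SE), and that of Usp18, the protease that removes ISG15 and restrains the type I receptor, was 0.32 ± 0.48 (SE).

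The guanylate-binding proteins, GTPases that attack the vacuoles of intracellular pathogens and respond strongly to interferon gamma, had fitted values above 0 for all 3 members. Gbp2 held 44.0, 28.0 and 43.0 CPM in NSD2fl/fl and 46.5, 57.6 and 79.1 CPM in NSD2∆IE. All 3 knockouts lay above all 3 controls, with NSD2∆IE replicate 1 only just above NSD2fl/fl replicate 1. In edgeR the log2 fold change was 0.67 ± 0.25 (SE, unadjusted p = 0.0320, adjusted p = 0.406). The unadjusted p was 0.0704 without NSD2fl/fl replicate 2, 0.0501 without NSD2fl/fl replicate 3, 0.0544 without NSD2∆IE replicate 2 and 0.113 without NSD2∆IE replicate 3. Between NSD2∆IE and NSD2fl/fl libraries of high Hoxb13 the log2 difference of Gbp2 was 0.097, and between those of low Hoxb13 it was 1.27, with 1 library in an arm of each and no test. Gbp3 held 13.0, 9.55 and 17.6 CPM in NSD2fl/fl and 12.8, 24.3 and 26.8 CPM in NSD2∆IE, so NSD2∆IE replicate 1 fell within the controls and the other knockouts lay above them (log2 fold change 0.67 ± 0.33, SE). Gbp7 had a log2 fold change of 0.36 ± 0.20 (SE). The 3 genes sit together on chromosome 3 and share sequence, so reads may be split among them.

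Rsad2 encodes viperin, which makes a chain-terminating nucleotide, and its neighbour Cmpk2 supplies the nucleotide precursor. Rsad2 had the lowest level per length of the set, at a mean of 2.30 FPKM. Rsad2 held 8.44, 9.61 and 6.80 CPM in NSD2fl/fl and 5.53, 13.3 and 8.53 CPM in NSD2∆IE. Cmpk2 held 10.8, 14.1 and 11.9 CPM in NSD2fl/fl and 7.04, 18.3 and 11.4 CPM in NSD2∆IE. Both genes shared an order in the knockouts, replicate 2 over 3 over 1, that enclosed the controls, and their log2 fold changes were 0.14 ± 0.33 and -0.0023 ± 0.34 (SE).

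Lgals3bp, a secreted glycoprotein that binds galectins, followed Irf7 in level per length, at 89.9 FPKM. Lgals3bp held 126, 283 and 249.6 CPM in NSD2fl/fl and 110.1, 270.2 and 209.7 CPM in NSD2∆IE. In both genotypes replicate 1 stood below the other 4 libraries, and the log2 fold change was -0.16 ± 0.40 (SE). Bst2, or tetherin, which holds budding virions at the cell surface, had a log2 fold change of 0.13 ± 0.26 (SE).

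Of the remaining effectors, Ifi27l2a held 19.2, 21.6 and 62.0 CPM in NSD2fl/fl and 38.6, 44.4 and 54.5 CPM in NSD2∆IE. One control, replicate 3, lay above all knockouts and the other controls lay below them, so the log2 fold change of 0.42 carried an SE of 0.45. Ifi44, Ifi35, Rtp4, Xaf1, Trim30a and Parp14 had log2 fold changes from -0.13 for Parp14, an ADP-ribosyltransferase, to 0.24 for Ifi44. Ifi44 varied 7.06-fold over the 6 libraries, the widest of the set.

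**Figure D2:**
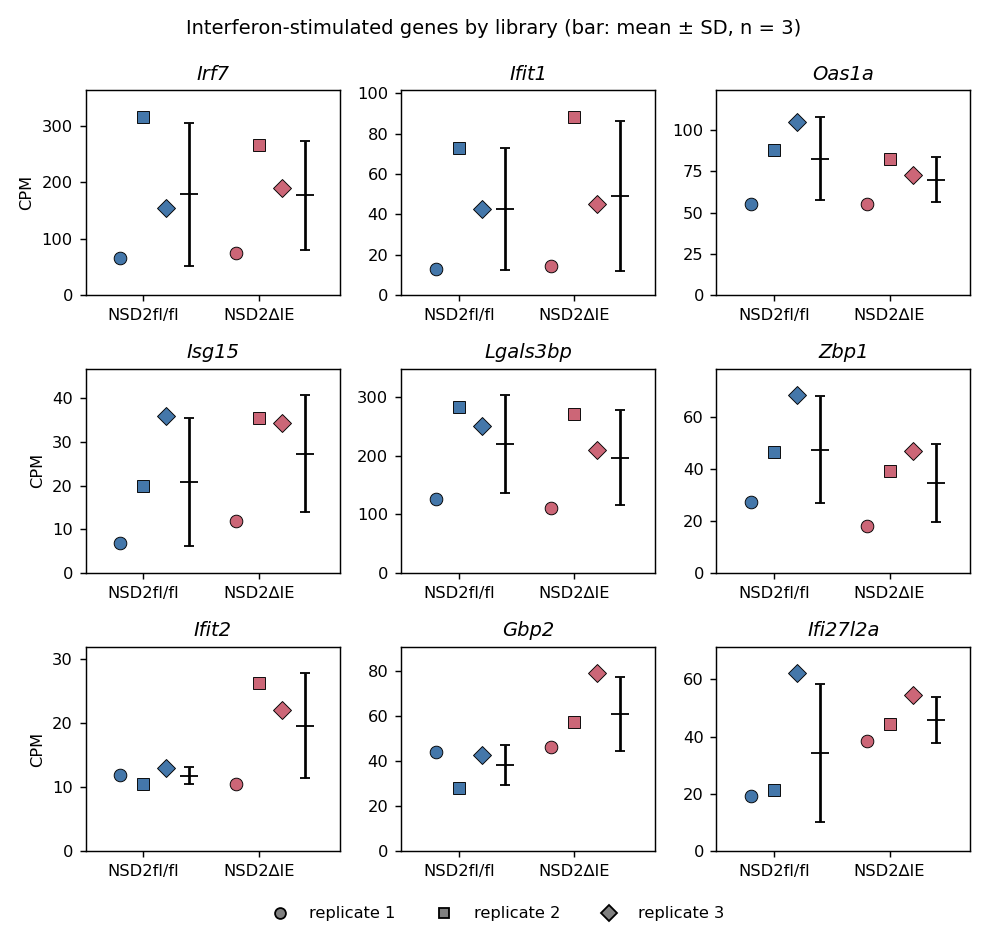
CPM (y axis, linear from 0) of 9 interferon-stimulated genes in each of the 3 NSD2fl/fl and 3 NSD2∆IE libraries, with the mean ± SD beside each group and a marker shape for each replicate number. For Irf7, Ifit1, Oas1a and Lgals3bp the circles of replicate 1 sit low in both genotypes, while Gbp2 shows no overlap and Ifit2 has 2 of 3 knockouts above the controls.

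Differences among libraries of one genotype were larger than the difference between genotypes for most of these genes. For 29 of the 33 (87.9%) the ratio of the highest to the lowest library exceeded the fitted fold change in both groups, against 63.0% of all genes tested. Over all 6 libraries the median ratio of the highest to the lowest was 2.53 for these genes and 1.66 for all genes, and it reached at least 2-fold for 22 of 33 (66.7%) against 36.9%.

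That variation ran along the same libraries in most of the genes. NSD2∆IE replicate 1 was the lowest of its group for 33 of 33 genes, against 38.4% of all genes, and NSD2fl/fl replicate 1 was the lowest of its group for 27 of 33 (81.8%), against 31.1%. Both held for 27 genes (81.8% against 15.0%), and for 23 genes (69.7% against 10.1%) both replicates 1 lay below all of the other 4 libraries. The levels of these 2 libraries were near each other, with a median ratio of NSD2∆IE over NSD2fl/fl of 0.999, within 1.5-fold for 27 genes. As a mean log2(CPM + 0.1) over the 33 genes, the NSD2fl/fl libraries had averages of 4.45, 5.08 and 5.29. The NSD2∆IE libraries had averages of 4.43, 5.47 and 5.27. This order of libraries was noticed in the values. Nothing in the labels says that the replicate numbers pair the samples, and whether they do is not known.

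**Figure D3:**
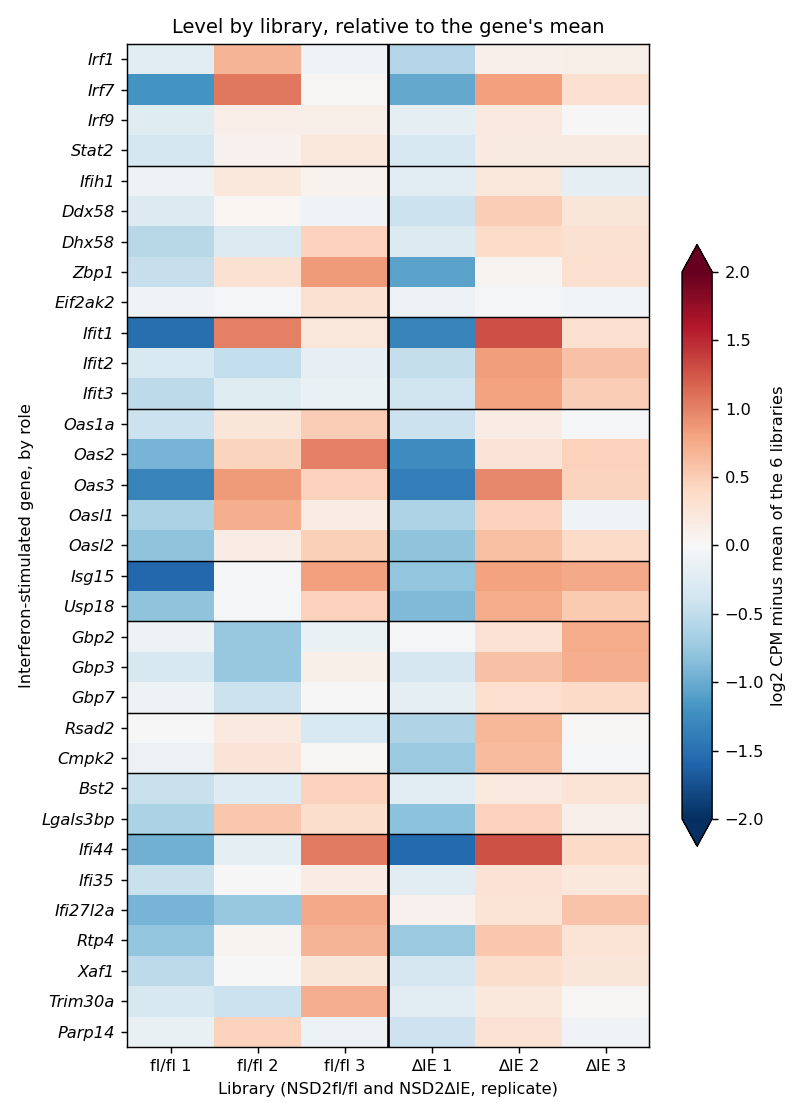
Log2 CPM of each of the 33 genes (rows, by role) in each library (columns), minus the mean of the gene over the 6 libraries. The columns of NSD2fl/fl replicate 1 and NSD2∆IE replicate 1 are blue through most rows, Ifit1, Oas3, Isg15 and Ifi44 are among the widest rows, and the GBP rows are lowest in NSD2fl/fl replicate 2.

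The summed markers of other cell types were read in the same libraries. The 6 markers of natural killer and innate lymphoid cells summed to 7.40, 33.5 and 6.01 CPM in NSD2fl/fl and 6.21, 30.1 and 23.6 CPM in NSD2∆IE, with none of them at 0 in any library. They were high in the 3 libraries of low Hoxb13 and low in NSD2fl/fl replicate 3, in which 20 of the 33 interferon-stimulated genes were the highest of their group. The 6 T cell markers with a row, of 7 listed, summed to 30.6, 41.8 and 26.8 CPM in NSD2fl/fl and 31.2, 42.8 and 40.2 CPM in NSD2∆IE. Like the interferon-stimulated genes, both sums were lower in the 2 replicates 1 than in NSD2fl/fl replicate 2 and NSD2∆IE replicates 2 and 3, and unlike them they were lowest in NSD2fl/fl replicate 3. The 7 macrophage markers summed to 254 to 334 CPM in NSD2fl/fl and 318 to 340.5 CPM in NSD2∆IE. Replicates 1, at 334 and 325 CPM of macrophage markers, lay within the range of the other libraries. The 6 B and plasma cell markers summed to 1653, 1261 and 2408 CPM in NSD2fl/fl and 1512, 1045 and 1140 CPM in NSD2∆IE. The 5 neutrophil markers summed to 119, 36.8 and 191 CPM and to 115, 5.25 and 12.1 CPM. Both sums were higher in the libraries of high Hoxb13. The 5 plasmacytoid dendritic markers summed to 1634 to 1805 CPM in NSD2fl/fl and 1321 to 1511 CPM in NSD2∆IE. Within the libraries of high Hoxb13, 2 of the 33 genes were higher in NSD2∆IE (median log2 difference -0.38), and within those of low Hoxb13, 20 were (median 0.25), with 1 library in an arm of each and no test. The part of these cell types in the result was not tested. The Hoxb13 class entered only an alternative fit, as a covariate added with the values known, and its part in the result was not itself tested.

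The signalling chain above these genes was read from a second list of 43. Of its 14 interferon ligands, 13 were not analysed here. Ifng, which encodes interferon gamma, had 2, 4 and 2 counts in NSD2fl/fl and 2, 10 and 2 in NSD2∆IE and was too low to test. Of the 29 genes tested, 1 was lower and 0 were higher at an unadjusted p under 0.05, against 2.96% and 8.15% of all genes, and none had an adjusted p under 0.05. The fitted values of 24 were below 0, against 9202 of all 16347 genes. Their median log2 fold change was -0.16, against -0.041 for all genes. On library totals alone the median of all genes was 0.086. In 6 genes every knockout lay below every control and in 1 every knockout lay above, against 7.28% and 11.4% of all genes. As a mean log2(CPM + 0.1) over the 29 genes the NSD2fl/fl libraries averaged 5.10, 5.29 and 5.19 and the NSD2∆IE libraries 5.04, 5.09 and 5.03. With these TMM-scaled values each knockout lay below each control. The TMM factors were 0.924 to 1.01 in NSD2fl/fl and 1.03 to 1.08 in NSD2∆IE, and the order on library totals alone was not tested. The 1 gene lower at an unadjusted p under 0.05 in edgeR was Ikbke, a kinase that activates IRF3 and IRF7. Ikbke held 43.8, 47.1 and 49.2 CPM in NSD2fl/fl and 41.1, 37.2 and 36.6 CPM in NSD2∆IE. Its groups did not overlap (log2 fold change -0.29 ± 0.10, SE, edgeR unadjusted p = 0.0286, adjusted p = 0.392), and its unadjusted p was 0.0543 to 0.108 without NSD2fl/fl replicate 2 or 3 or NSD2∆IE replicate 2 or 3. The unadjusted p of Ikbke was under 0.05 in 7 of 17 alternatives, and was 0.0685 with upper-quartile factors, 0.154 on library totals alone (log2 fold change -0.16) and 0.163 on log2(FPKM + 1) (log2 fold change -0.14). With upper-quartile factors or library totals the 1 gene of the 29 at an unadjusted p under 0.05 was Ifnar2, which was higher. The receptor chains had log2 fold changes of -0.12 for Ifnar1, 0.24 for Ifnar2, -0.37 for Ifngr1, -0.33 for Ifngr2 and -0.23 for Ifnlr1, the smallest unadjusted p being 0.0531 for Ifngr1.

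The GTPases of the immunity-related and guanylate-binding families that answer mainly to interferon gamma were taken as a separate list of 15, of which 14 were tested. In edgeR 0 had an unadjusted or adjusted p under 0.05, while in DESeq2 4 had an unadjusted p under 0.05 (Gbp5, Igtp, Iigp1 and Tgtp2), all higher, against 9.2% of all genes. The fitted values of 12 were above 0, against 7145 of all 16347 genes, with a median log2 fold change of 0.56. As a mean log2(CPM + 0.1) over the 14, NSD2fl/fl replicates 1 and 3 had 3.31 and 3.16 and NSD2∆IE replicate 1 had 2.72. These are the libraries of high Hoxb13. Among those of low Hoxb13, NSD2fl/fl replicate 2 had 2.90 and NSD2∆IE replicates 2 and 3 had 3.95 and 4.04. The order of the genotypes thus differed between the classes, with 1 library in an arm of each and no test. Within the knockouts, NSD2∆IE replicate 1 was the lowest library for all 14, and without it 8 were higher at an unadjusted p under 0.05, against 7.8% of all genes in that fit. Leaving out the lowest knockout raises the fitted values of all 14, and the fit then holds knockouts of low Hoxb13 alone. Without NSD2fl/fl replicate 1, 2 were higher (Iigp1 and Tgtp2), against 1751 of all 16669 genes in that fit. Without any 1 of the other libraries 0 were, against 675 to 1561 of all genes. In the controls NSD2fl/fl replicate 2 was the lowest for 11 of 14, where replicate 1 had been the lowest for most of the 33 genes. Igtp, which guards against vacuolar parasites, had the smallest unadjusted p and held 27.0, 20.3 and 29.2 CPM in NSD2fl/fl and 22.5, 56.4 and 56.7 CPM in NSD2∆IE. In edgeR its unadjusted p was 0.0541 (adjusted p = 0.457). Without NSD2∆IE replicate 1 it was 0.000808 (adjusted p = 0.216), and without any 1 of the other libraries it was 0.0806 to 0.162. In the edgeR fit with the Hoxb13 class, added with the values known, it was 0.186 (log2 fold change 0.58). In that fit the unadjusted p of Iigp1 was 0.207 and that of Tgtp2 0.228. Iigp1 had the largest fitted value, at 22.5, 6.56 and 11.2 CPM in NSD2fl/fl and 12.3, 40.1 and 43.8 CPM in NSD2∆IE (log2 fold change 1.26 ± 0.59, SE). The 2 genes shared 2 high libraries, NSD2∆IE replicates 2 and 3. Igtp overlaps Irgm2 on the same strand.

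**Figure D4:**
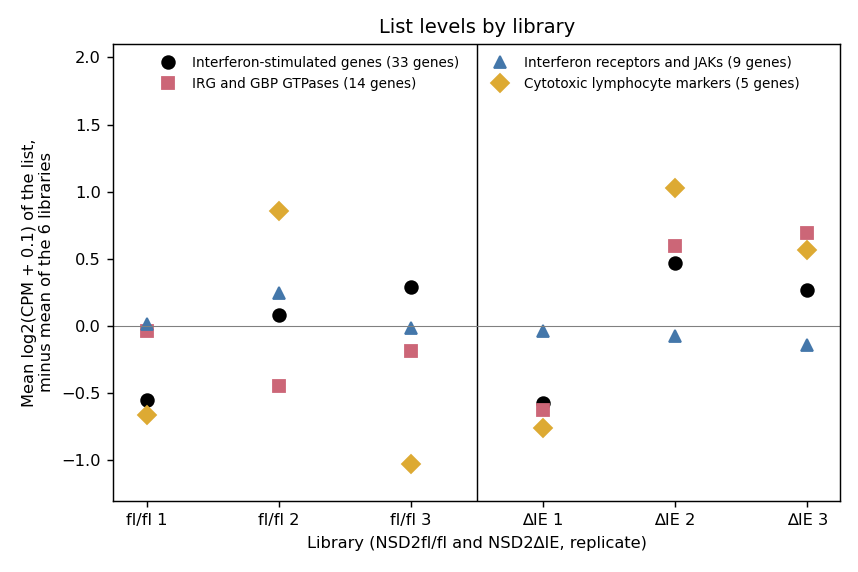
Mean log2(CPM + 0.1) of each list minus its mean over the 6 libraries (y axis) for NSD2fl/fl and NSD2∆IE replicates 1 to 3 (x axis). The interferon-stimulated genes are low in replicate 1 of both genotypes, and the GTPases are high in NSD2∆IE replicates 2 and 3. The receptors and JAKs lie within a narrower range. With TMM factors each knockout of these lies below each control (6.09 to 6.19 against 6.21 to 6.47 before centring), and the order on library totals alone was not tested.

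A further 55 interferon-stimulated genes outside the 35 gave 53 tested, with a median log2 fold change of -0.0025, 2 higher and 1 lower at an unadjusted p under 0.05, against 8.15% and 2.96% of all genes, and none with an adjusted p under 0.05 in edgeR. Ifitm1, a membrane protein that blocks viral fusion, held 11.0, 14.5 and 14.8 CPM in NSD2fl/fl and 22.1, 24.3 and 28.6 CPM in NSD2∆IE. Its groups did not overlap, its log2 fold change was 0.90 ± 0.17 (SE), and its adjusted p was 0.302 in edgeR and 0.00248 in DESeq2. Slfn1, a Schlafen family gene, held 0.753, 0.763 and 0.590 CPM in NSD2fl/fl and 1.82, 1.01 and 1.59 CPM in NSD2∆IE (log2 fold change 1.06 ± 0.35, SE, unadjusted p = 0.0189 in edgeR). Ifit1bl1, a near copy of Ifit1, held 214, 452 and 419 CPM in NSD2fl/fl and 209, 245 and 178 CPM in NSD2∆IE. NSD2fl/fl replicate 1 lay among the knockouts and the other controls above them, with a log2 fold change of -0.78 ± 0.29 (SE, edgeR unadjusted p = 0.0335, adjusted p = 0.410). Leaving out any 1 library other than NSD2fl/fl replicate 1 or NSD2∆IE replicate 2 gave an unadjusted p from 0.0721 to 0.105. For Slfn1 it was 0.0603 without NSD2fl/fl replicate 3, 0.0736 without NSD2∆IE replicate 1 and 0.0628 without NSD2∆IE replicate 3.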

How the data were processed

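Colon RNA was sequenced in 3 NSD2fl/fl and 3 NSD2∆IE libraries. The authors deposited whole-number read counts per gene and FPKM values (reads scaled to gene length and library total) per gene; their processing notes name fastp, HISAT2, HTSeq and R 3.2.0 with mm10, and the annotation and use of strand are not given in the sources used here. FPKM implied the same whole gene length in all libraries to within 0.0655 bases over 17863 genes, so both came from the same counts. Libraries were grouped by the labels, and none was left out or deposited again. Counts were analysed in edgeR 4.0.16 (R 4.3.3; filterByExpr, TMM, quasi-likelihood test, two-sided, no covariate), with Benjamini-Hochberg adjustment over 16347 genes. SEs are the fitted log2 fold change divided by the root of F. Alternatives used DESeq2 1.42.0 and limma 3.58.1 and are described in the closing section. Whether the 3 libraries of a group came from separate animals is not stated in the labels, and the p-values measure the spread between these libraries. A count of 0 allows up to 3 counts, 0.0777 to 0.0789 CPM, for counting error only. Values by library are given for members with an unadjusted p under 0.05, without overlap, or with the largest change or highest level of their role, and the others by range. The fits were tested on simulated data. The 35 genes and all lists were chosen with earlier results of these data known. Promoters are from RefSeq, GRCm38.p6. 1 gene of the signalling list is not reported here.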

Additional observations from a re-analysis of the deposited data

How the results depend on the processing

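No gene of the 33 had an adjusted p under 0.05 under any of the 17 alternatives. The count of genes higher at an unadjusted p under 0.05 was 1 in the main test. It was 3 in DESeq2, on library totals alone and on upper-quartile factors. Of all genes, 1502 of 16333, 1766 of 16347 and 1612 of 16347 were higher in these fits. Without a filter on low counts the count was 2, against 1468 of 24517. Leaving out 1 library gave 0 to 6, against 675 to 1751 of all genes. The 6 (Ddx58, Gbp2, Gbp3, Gbp7, Ifit2 and Ifit3) came without NSD2∆IE replicate 1, against 1301 of 16672. That library was the lowest knockout for 33 of 33 genes and the only one of high Hoxb13. The count was 0 without NSD2fl/fl replicate 2, NSD2∆IE replicate 2 or NSD2∆IE replicate 3. The count of genes lower, 0 in the main test, was 0 in every fit that left out a library, against 146 to 932 of all genes. A covariate for the Hoxb13 class, an alternative added with the data in view and chosen after seeing them, gave 2 lower (Irf1 and Parp14). Of all 16347 genes, 636 were lower and 1481 higher in that fit. Deviations from group means correlated across genes at r of 0.50, 0.64 and -0.17 between libraries of the same number 1, 2 and 3. Between libraries of unlike number, r ran from -0.66 (NSD2fl/fl 2 with NSD2∆IE 1) to 0.45 (NSD2fl/fl 3 with NSD2∆IE 1). Whether the numbers pair the samples is not known. With the replicate block, 2 genes were higher (Gbp2 and Ifit3), 2 were lower (Oas2 and Zbp1) and 2 pathway genes were called. Of all 16347 genes, 1488 were higher and 747 lower in that fit. The pathway count, 1 in the main test, was 2 in DESeq2, limma-voom and without a filter. It was 0 on log2(FPKM + 1) and log2(FPKM + 0.1), 3 with the Hoxb13 class and 0 to 3 without 1 library. Of all 16347 genes, limma-voom called 1461 higher and 449 lower. On log2(FPKM + 1) 1975 were higher and 164 lower, and on log2(FPKM + 0.1) 1947 and 150. The median log2 fold change of the 33 stayed within the spread of the libraries' averages (SD 0.498) but was below 0 with the Hoxb13 class (-0.13) and ran from -0.16 to 0.37 without 1 library. Gbp2 had an unadjusted p under 0.05 in 13 of 17 alternatives, with adjusted p from 0.201 to 0.990. Library totals alone, log2(FPKM + 1) and log2(FPKM + 0.1) moved the median of all genes by 0.13, 0.10 and 0.14. The cause of these changes was not tested.

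Of 561 values of single genes under the alternatives, 79 had the opposite sign to the main fit, and 12 of the 33 genes kept their sign throughout. The log2 fold change was of opposite sign with RLE factors for Cmpk2 (0.0026). It was so with upper-quartile factors for Irf7 (0.067), Irf9 (0.064) and Cmpk2 (0.067). The same held with library totals alone for Irf7 (0.15), Irf9 (0.13), Ifih1 (0.017), Cmpk2 (0.13), Trim30a (0.060) and Parp14 (0.0060). It was so in DESeq2 for Cmpk2 (0.0026). The same held in limma-voom for Irf7 (0.072) and Trim30a (0.019). It was so without a filter on low counts for Stat2 (-0.013) and Rtp4 (-0.018). The same held at a minimum of 1 CPM in 3 libraries for Irf7 (0.0013), Irf9 (0.0056) and Cmpk2 (0.0089). It was so on log2(FPKM + 1) for Irf7 (0.20), Irf9 (0.12), Ifih1 (0.0063), Cmpk2 (0.038), Trim30a (0.10) and Parp14 (0.00035). The same held on log2(FPKM + 0.1) for Irf7 (0.21), Irf9 (0.12), Ifih1 (0.0061), Cmpk2 (0.028) and Trim30a (0.14). It was so with the replicate block for Irf7 (0.079) and Trim30a (0.013). The same held with the Hoxb13 class as a covariate for Stat2 (-0.10), Ifit1 (-0.53), Oas3 (-0.65), Oasl2 (-0.21), Isg15 (-0.012), Usp18 (-0.066), Rsad2 (-0.14), Ifi44 (-0.37), Rtp4 (-0.25) and Trim30a (0.018). The genes that changed sign without 1 library had these ranges of log2 fold change, each over the 6 fits: Bst2 -0.049 to 0.45, Cmpk2 -0.41 to 0.29, Ifi44 -0.48 to 0.97, Ifit1 -0.53 to 0.84, Irf1 -0.44 to 0.064, Irf7 -0.43 to 0.69, Irf9 -0.12 to 0.10, Isg15 -0.038 to 1.04, Lgals3bp -0.46 to 0.14, Oas2 -0.76 to 0.10, Oas3 -0.44 to 0.49, Oasl1 -0.50 to 0.18, Oasl2 -0.15 to 0.47, Parp14 -0.32 to 0.10, Rsad2 -0.24 to 0.40, Rtp4 -0.28 to 0.44, Stat2 -0.13 to 0.18, Trim30a -0.27 to 0.39 and Xaf1 -0.018 to 0.37. Library totals were near equal, and the precision rests on 3 libraries a group.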
